A study of Caenorhabditis elegans with 20 samples.

Results

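Gene expression in dauers that could degrade DAF-16 in the intestine was compared with that in dauers that had neither part of the degradation system. The comparison takes 10 of the 20 RNA-seq libraries of the series, chosen by their labels, with 5 libraries of dauers that had both TIR1(F79G) and 5-Ph-IAA and 5 libraries of dauers that had neither. It asks what the whole degradation system changed in the dauer transcriptome, including whatever the transgene and the ligand each did alone. Dauers with both components came from strain OH17582, which carries the transgene *otSi2*, in which the *ges-1* promoter drives *TIR1(F79G)* fused to *mRuby* ahead of the 3' UTR of *unc-54*, and grew on 100 μM 5-Ph-IAA. Dauers with neither came from strain OH14654, which lacks the transgene, and grew on the solvent without the ligand. Plates of both groups held 0.2% ethanol, the solvent of the ligand. Both strains carry *daf-2(e1370)*, which reduces insulin receptor function in a temperature-sensitive way, and *daf-16(ot853[daf-16::mNG::AID])*, so that the controls also had tagged DAF-16 and reduced insulin signalling. All animals grew at 25 °C for 3 days, about 24000 animals were pooled for each library, and animals that were not dauers were removed by hand. This promoter is active in the intestine, whereas RNA was taken from whole animals, so a change inside the intestine is diluted by all other tissues. In such bulk RNA, fewer cells of a type and less RNA per cell cannot be told apart. The remaining 10 libraries had TIR1 without the ligand or the ligand without TIR1, and they entered the shared estimate of the spread.

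Dauer is an arrested larval stage that *C. elegans* enters under crowding, heat or poor food. When insulin peptides bind DAF-2, a kinase cascade keeps the FOXO transcription factor DAF-16 out of the nucleus, and when signalling is low DAF-16 enters the nucleus and holds a programme of arrest, stress resistance and fat storage. The intestine is the worm's digestive tract, its main fat store, the source of yolk proteins in adults and a source of insulin peptides and innate immune effectors. In the auxin-inducible system used here, 5-Ph-IAA bridges TIR1(F79G) and the AID tag, and the tagged protein is ubiquitinated and degraded.

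The libraries with both components had 3989669 to 15585703 reads on genes and those with neither had 6249223 to 12323401. Replicate 5 with both components was the shallowest, and ribosomal RNA genes took 21.4% of its reads. They took 1.78% to 5.52% in the other 4 libraries with both components and 4.52% to 6.97% in those with neither. Values below are normalized counts, the reads on a gene divided by a library size factor, and 5 values in a row are in the order of replicates 1 to 5. Libraries were not paired by replicate number, and the labels do not say whether libraries of the same number were collected together. Over the 500 most variable genes the mean distance between libraries of different groups was 57.77 on the log2 scale, against 34.78 within groups, and no other division of the 10 libraries into 5 and 5 gave a larger excess (one-sided exact permutation test over 252 divisions, p = 0.00794, which is also the smallest p possible). The first principal component held 62.84% of the variance and placed the libraries with both components at 11.83 to 34.08 and those with neither at -40.55 to -4.501.

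Markers of adult and germline tissue moved with the groups, and these values bear on every gene group below. Summed normalized counts of the 6 vitellogenin genes, which encode yolk proteins, were 24053, 8617, 26548, 53264 and 52694 in the libraries with both components and 743, 2656, 193.6, 87.5 and 14135 in those with neither. The groups overlapped, because replicate 5 with neither component lay above replicate 2 with both. The 12 oocyte markers summed to 4115 to 10066 with both components (median 6554) and to 2457 to 4559 with neither (median 2667), and again the highest value with neither was replicate 5 and the lowest value with both was replicate 2. The sums of the sperm markers were 94.8 to 174 with both components and 17.9 to 97.0 with neither, low in all libraries, and 3 of the 33 sperm genes had no read in any of the 10. Adult cuticle markers summed to 299 to 702 with both components and to 26.9 to 389 with neither, and dauer cuticle markers to 2162 to 4357 with both and to 1225 to 3682 with neither. The part that adult or germline RNA has in the changes described here was not tested beyond a fit with the log2 sum of the oocyte markers as a covariate. Its counts stand beside the gene groups where they differ. The covariate itself differs between the groups, so a call lost in this fit cannot be told apart from a loss of power. With it *gst-22* went from 2.85 to 2.53 (adjusted p = 0.0597 in limma) and *col-95* from 4.79 to 0.38 (adjusted p = 0.901), and neither passed.

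**Figure D1:**
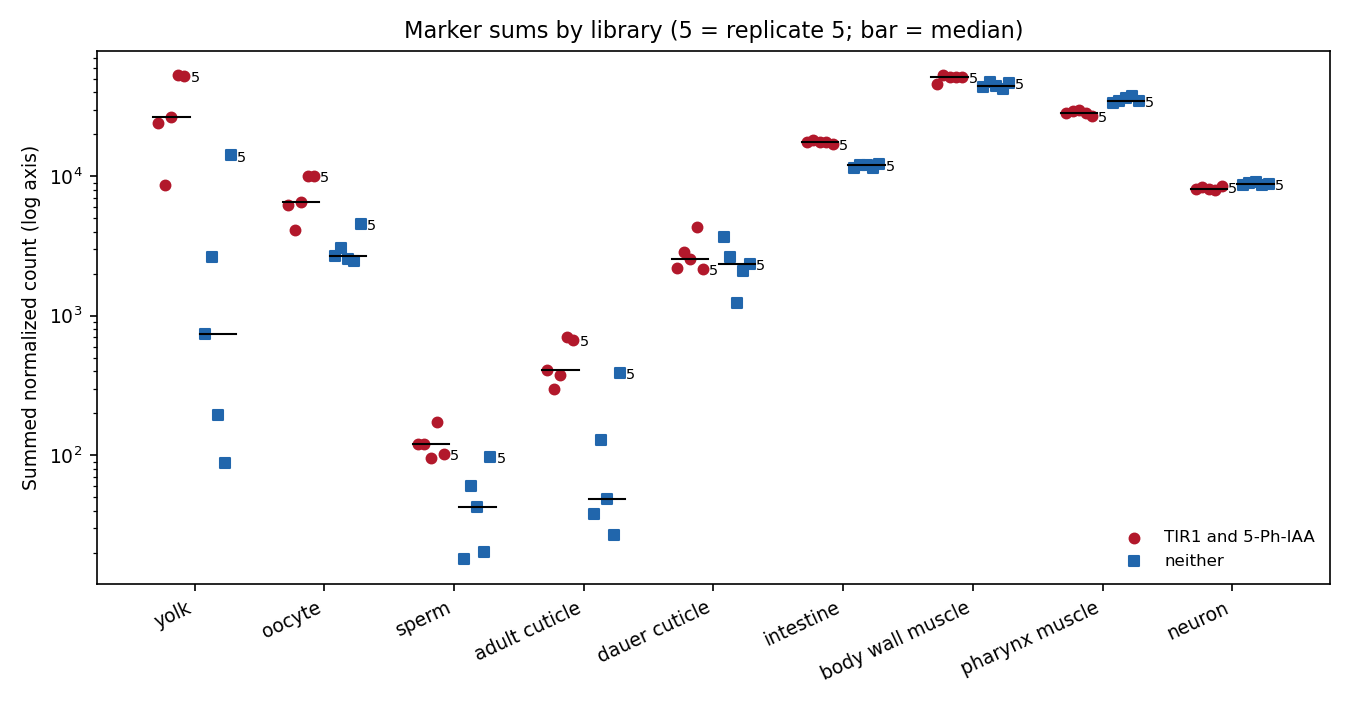
Summed normalized counts (log axis) of each set of marker genes, with 1 mark per library, dauers with both TIR1 and 5-Ph-IAA to the left and dauers with neither to the right, and replicate 5 labelled. Yolk markers span 8617 to 53264 with both components and 87.5 to 14135 with neither, and intestine markers 16994 to 18086 with both and 11418 to 12146 with neither.

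Markers of the tissue targeted by TIR1 were also higher. The 8 intestine markers summed to 16994 to 18086 with both components and to 11418 to 12146 with neither, without overlap. A call throughout needed an adjusted p under 0.05 in limma's moderated test and a change of at least 1.5-fold. Of all tested genes 5.62% were called higher and 2.52% lower. Of the 8 intestine markers 4 rose by these criteria. These were *ges-1*, a gut esterase (log2 fold change 0.92 ± 0.08 SE, adjusted p = 2.92e-09), *act-5*, the actin of the intestinal microvilli (0.71, adjusted p = 1.45e-10), and *ifc-2* and *ifb-2*, intermediate filament proteins of the gut (0.60 and 0.60). *ifc-2* and *ifb-2* lay just over 1.5-fold, and neither passed with equal library totals (0.57 and 0.57). Without replicate 4 with neither component both were at 0.57 and 2 of the 8 markers were called, and without replicate 2 with both components *ifb-2* was at 0.57. The intestinal GATA factor genes *elt-2* and *elt-7* did not pass, at 0.41 (adjusted p = 0.0702) for *elt-2* and 0.06 (adjusted p = 0.82) for *elt-7*. Body wall muscle markers summed to 45845 to 53150 with both components and to 41958 to 47570 with neither. This sum includes *unc-54* (0.35, below 1.5-fold), and 3 of the 5 markers had positive values. Only *myo-3* was called, and it was lower, at 2430 to 3471 with both and 4159 to 4752 with neither. Its log2 fold change was -0.61 ± 0.11 (adjusted p = 1.44e-04). *myo-3* did not pass without replicate 1, 2 or 3 with both or replicate 4 with neither (-0.58 to -0.54). Pharynx muscle markers summed to 27204 to 29953 with both and to 33273 to 37694 with neither, and neuron markers to 7980 to 8464 with both and to 8661 to 9063 with neither.

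The transcript of the tagged gene did not differ detectably. *daf-16* had 8231, 8781, 8897, 7998 and 7762 normalized counts with both components and 7968, 8558, 8717, 8536 and 8474 with neither, and its log2 fold change was -0.02 ± 0.04 (adjusted p = 0.755). The system acts on protein, so this mRNA does not check the labels. *daf-2* was likewise at 4142 to 4724 with both and 4319 to 4717 with neither. Of the pieces that the TIR1 transgene carries, the promoter belongs to *ges-1* and the 3' UTR to *unc-54*, a body wall muscle myosin. *unc-54* had 28242 to 33860 counts with both components and 22295 to 27337 with neither (log2 fold change 0.35 ± 0.06, adjusted p = 6.36e-05), below 1.5-fold, and TIR1 alone gave 0.29 (adjusted p = 0.0135).

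In all, 960 of 17090 tested genes were higher in dauers with both components (5.62%) and 431 were lower (2.52%), so that 69% of the 1391 called genes were higher. Higher genes also outnumbered lower ones among the larger changes, with 624 against 209 genes at a log2 fold change of at least 1, 234 against 33 at 2 or more and 57 against 10 at 3 or more. All 5 libraries with both components lay above all 5 with neither for 1243 genes (7.27%) and below all 5 for 976 genes (5.71%). The median log2 fold change of all tested genes was -0.0032. Quantile normalization gave 881 higher and 586 lower, a share of 60% higher. With the oocyte markers as a covariate 449 genes were higher and 277 lower, and 362 and 192 of these were among the 960 and 431.

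**Figure D2:**
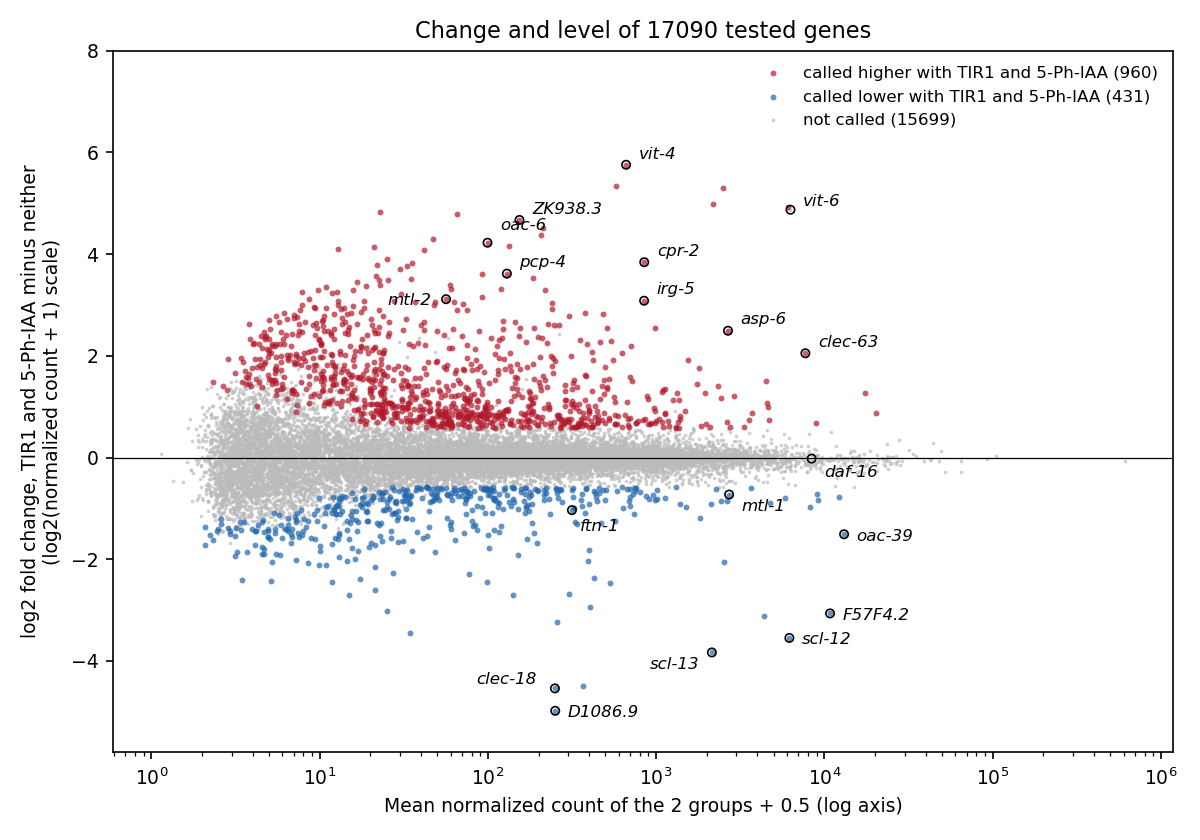
Log2 fold change of each tested gene, dauers with both TIR1 and 5-Ph-IAA minus dauers with neither, against its mean normalized count (log axis), with the 960 genes called higher in red, the 431 called lower in blue and some named genes ringed. The 33 genes that fell by 2 or more on the log2 scale are few beside the 234 that rose as much, but they include abundant transcripts such as *scl-12* and *F57F4.2*.

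Called genes lay on every chromosome but in unequal shares. On chromosome V 7.42% of tested genes were higher and 4.08% lower, and on chromosome I 3.14% were higher and 1.57% lower, with chromosomes II, III, IV and X between these values for the higher genes and chromosome III lowest for the lower genes at 0.965%. None of the 14 tested mitochondrial genes was called. Of the called genes, 917 of the 960 higher and 370 of the 431 lower were protein-coding.

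The largest rises and falls that separated the groups completely were as follows. Among genes with a mean of at least 10, the largest rise was that of *K10D11.2* (chromosome IV, 12978986 to 12981991 in the WBcel235 annotation), with 57.9, 38.5, 43.7, 60.1 and 20.4 normalized counts in the libraries with both components and 0, 2.39, 0, 0 and 1.15 in those with neither. It was close to undetected without the system, and its log2 fold change was 4.83 ± 0.49 (adjusted p = 3.28e-08). *ZK938.3* (chromosome II, 9831521 to 9833955) had 311, 283, 258, 318 and 309 counts with both components and 20.1, 7.17, 6.30, 9.43 and 15 with neither, a log2 fold change of 4.67 ± 0.25 (adjusted p = 2.31e-13). *oac-6*, a member of the O-acyltransferase family on chromosome V, had 209.8, 170, 179.6, 259.6 and 125 counts with both and 8.94, 11.15, 7.87, 5.39 and 12.7 with neither (log2 fold change 4.22 ± 0.40). Each of these genes was high in all 5 libraries with both components, replicate 5 included.

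*clec-170*, *clec-206* and *clec-7* encode C-type lectin domain proteins, a large secreted family with many members induced by infection, and rose by 4.14, 4.10 and 3.79 on the log2 scale. *clec-206* had 130 reads over the 5 libraries with both components and 2 reads over the 5 with neither, a ratio of 46.3 with an exact 95% interval of 12.55 to 386 that covers counting error only. *chil-22*, a chitinase-like gene, had 34.9 to 69.7 counts with both and 1.12 to 5.58 with neither. *cpr-2*, a cathepsin B-like protease gene (chromosome V, 16532936 to 16534100), was the most abundant of the 12 largest rises, with 1649.9, 968, 1589, 2043 and 1674 counts with both and 76, 68.5, 112, 187 and 125.8 with neither (log2 fold change 3.84 ± 0.31, adjusted p = 8.22e-10). *pcp-4*, a prolyl carboxypeptidase-like gene, had 244, 257, 224, 262 and 212 counts with both and a narrow 19, 18.3, 18.9, 16.2 and 20.8 with neither (log2 fold change 3.62 ± 0.21). The remaining 3 were *dod-17*, a gene named for lying downstream of DAF-16, with 43.4 to 64 counts with both and 1.57 to 4.62 with neither, *C14C6.2* (140.1 to 221 and 6.73 to 25.7) and *fdgt-2* (29.97 to 50.7 and 0.797 to 8.08).

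Of the 12 largest falls, 3 were of abundant *scl* genes, which encode secreted proteins of the SCP/CAP family. *scl-12* and *scl-13* are neighbours on chromosome V (3812591 to 3813437 and 3810785 to 3811641), and *scl-11* lies on chromosome IV. *scl-12* had 671, 875, 1139.9, 779.5 and 1615 counts with both components and 10642, 10909, 12574, 10198 and 12490 with neither, 11.7-fold lower with both (adjusted p = 3.65e-15). *scl-13* had 191, 183, 272, 274 and 599.5 with both and 4069, 3602, 4457, 2942 and 4851 with neither, and *scl-11* 741, 650.1, 809, 976 and 1473 with both and 7723, 6183, 8458, 7486 and 9085 with neither. In each case the library with both components and the highest value was replicate 5 and the gap to the lowest library with neither remained several fold. *F57F4.2* (chromosome V, 6389039 to 6389734) was the most abundant of the 12 largest falls, with 1966, 2272, 2546, 1839.9 and 3027 counts with both and 18840, 19094, 20454, 16557 and 21435 with neither (log2 fold change -3.07 ± 0.12, adjusted p = 1.22e-15).

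The steepest fall was that of *D1086.9* (chromosome V, 14104270 to 14106330), with 16.9, 13.5, 12.1, 6.83 and 29.1 counts with both components and 402, 427, 452, 477 and 672 with neither (log2 fold change -4.98 ± 0.32, adjusted p = 7.55e-12). *clec-18* went against most lectin genes, with 16.1, 15.9, 22.2, 10.9 and 40.7 counts with both and 363, 378, 486, 537 and 627 with neither (log2 fold change -4.54 ± 0.23). *F35E8.7* had 15.3, 21.4, 28.9, 41.7 and 58.2 with both and 675, 589.6, 748, 672 and 808 with neither. Every library with both components lay far below every library with neither for these 3 genes. *Y51B9A.8* had 95.7, 94.8, 105, 78.6 and 90.2 counts with both and 684, 666, 664, 894 and 687 with neither, the smallest standard error of the 12 (log2 fold change -2.94 ± 0.11, adjusted p = 9.85e-16). *alh-2*, an aldehyde dehydrogenase gene, had 2.73 to 11.6 with both and 44.6 to 74.1 with neither. *H39E23.3* (20.8 to 90.2 and 252 to 757), *Y71F9AM.8* (2.41 to 6.15 and 29.5 to 69.2) and *F59A7.11* (1.22 to 6.15 and 16.2 to 35.7) complete the 12, and *F59A7.11* overlaps *F59A7.7* on the other strand. The strand setting of the counting is not given in the sources used here, so reads of such overlapping genes cannot be told apart. Exons of 3107 tested genes overlap those of another gene on the other strand, and not every named gene with such an overlap is marked.

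**Figure D3:**
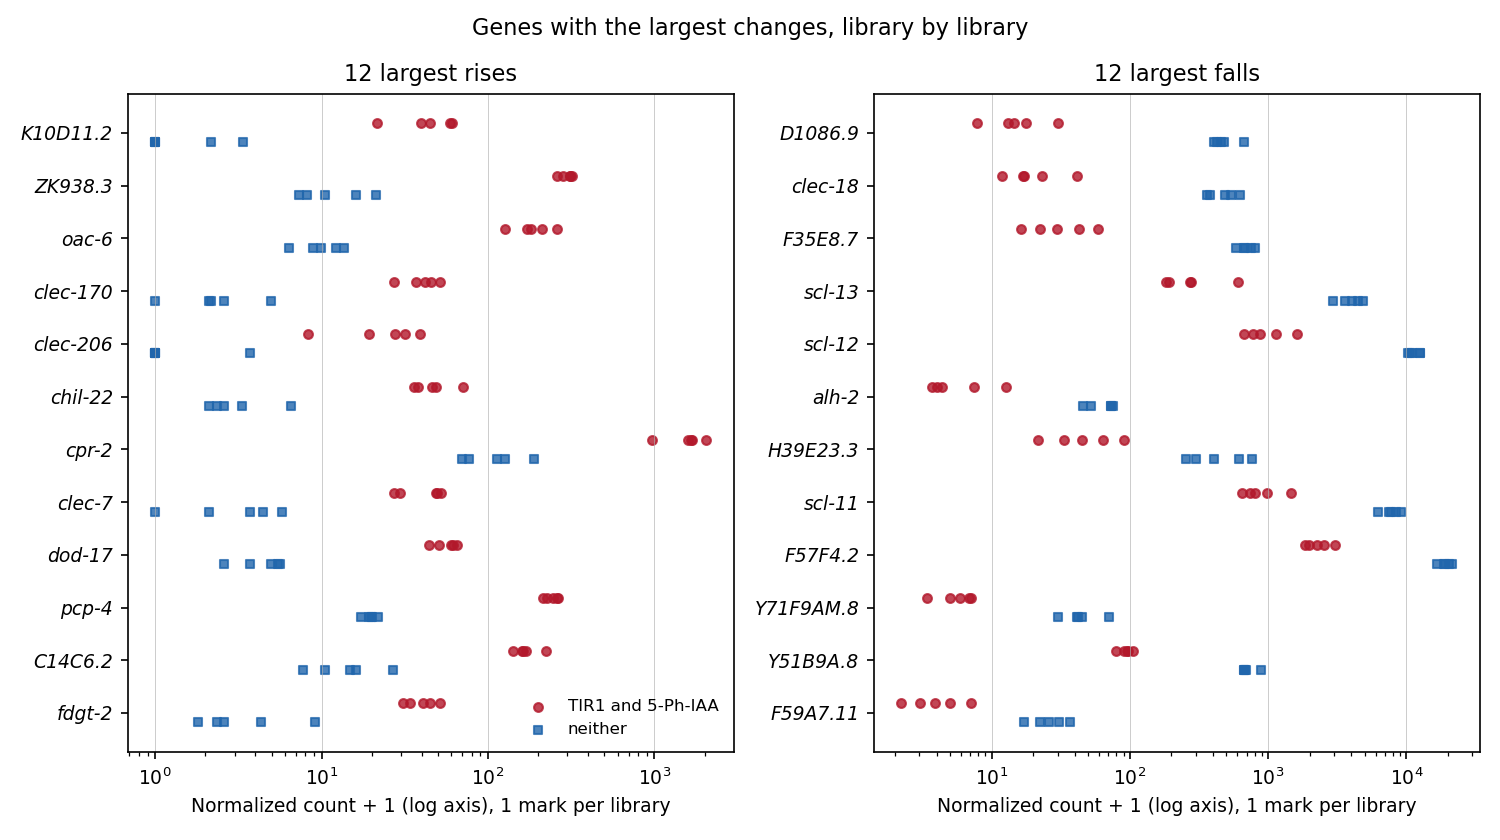
Normalized count + 1 (log axis) of the 12 genes with the largest rise and the 12 with the largest fall, each mark a library, circles for dauers with both TIR1 and 5-Ph-IAA above squares for dauers with neither. No circle overlaps a square of the same gene, and *cpr-2* (968 to 2043 with both, 68.5 to 187 with neither) and *scl-12* (671 to 1615 and 10198 to 12574) show the gap at high counts.

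Because both the strain and the ligand differ between the groups, the same fit gave each component alone against neither for the 5 leading genes in each direction. These comparisons share the libraries with neither component. TIR1 alone called 0.0819% of tested genes higher and 0.164% lower, the ligand alone 0.0234% higher and 0.00585% lower, and the effect of the ligand with TIR1 minus its effect without TIR1 was called positive for 5.22% of genes and negative for 1.52%. For 9 of the 10 leading genes TIR1 alone was not called. *oac-6* had a log2 fold change of -0.91 for TIR1 alone and -0.07 for the ligand alone, and the difference between the ligand's effects with and without TIR1 was 5.20 (adjusted p = 2.23e-07). For *D1086.9* these values were 0.13, -0.67 and -4.45 (adjusted p = 7.53e-08), for *scl-12* 0.05, -0.10 and -3.50 (adjusted p = 1.21e-11), and for *clec-18* -0.56, -0.32 and -3.66 (adjusted p = 9.61e-09). None of these passed with either component alone. *clec-170* was intermediate, at 1.55 for TIR1 alone and 1.42 for the ligand alone (adjusted p = 0.0709 and 0.349).

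*ZK938.3* was the exception. It rose by 4.89 on the log2 scale with TIR1 alone (adjusted p = 1.39e-12). It had 328 to 359.8 counts in the 5 libraries with TIR1 and no ligand, against 258 to 318 with both components. The ligand's effect with TIR1 minus its effect without TIR1 did not pass (-0.62, adjusted p = 0.325). *fdgt-2* (3.32 with TIR1 alone) and *F14E5.8* (2.32) rose with TIR1 alone too. These 2 genes lie close together on chromosome II (8417618 to 8419826 and 8420098 to 8422186). *B0511.11* had 32.2, 28.7, 22.9, 21.2 and 23.3 counts with both components and 135, 133, 122.8, 127 and 125 with neither, and it was at 14.9 to 28 with TIR1 alone (log2 fold change -2.61, adjusted p = 7.00e-12). *alh-2* (-2.59) and *tag-344* (-2.57) fell with TIR1 alone as well. On chromosome I *tag-344* (10644245 to 10645617) lies close to *B0511.11* (10648600 to 10654237). *ZK938.3* and the 5 other genes named here therefore differed between the strains without ligand, and the comparison of both components with neither includes that difference. In all, TIR1 alone called 14 genes higher and 28 lower. With the ligand alone, *irg-5*, an infection response gene, rose by 1.43 (adjusted p = 0.00458) and *cyp-35A1*, a cytochrome P450 gene, by 1.80 (adjusted p = 0.0402), against 3.08 and 2.79 with both components. For *irg-5* the ligand's effect was larger with TIR1 than without by 1.61 (adjusted p = 5.63e-04), and for *cyp-35A1* that difference did not pass (0.94, adjusted p = 0.242).

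**Figure D4:**
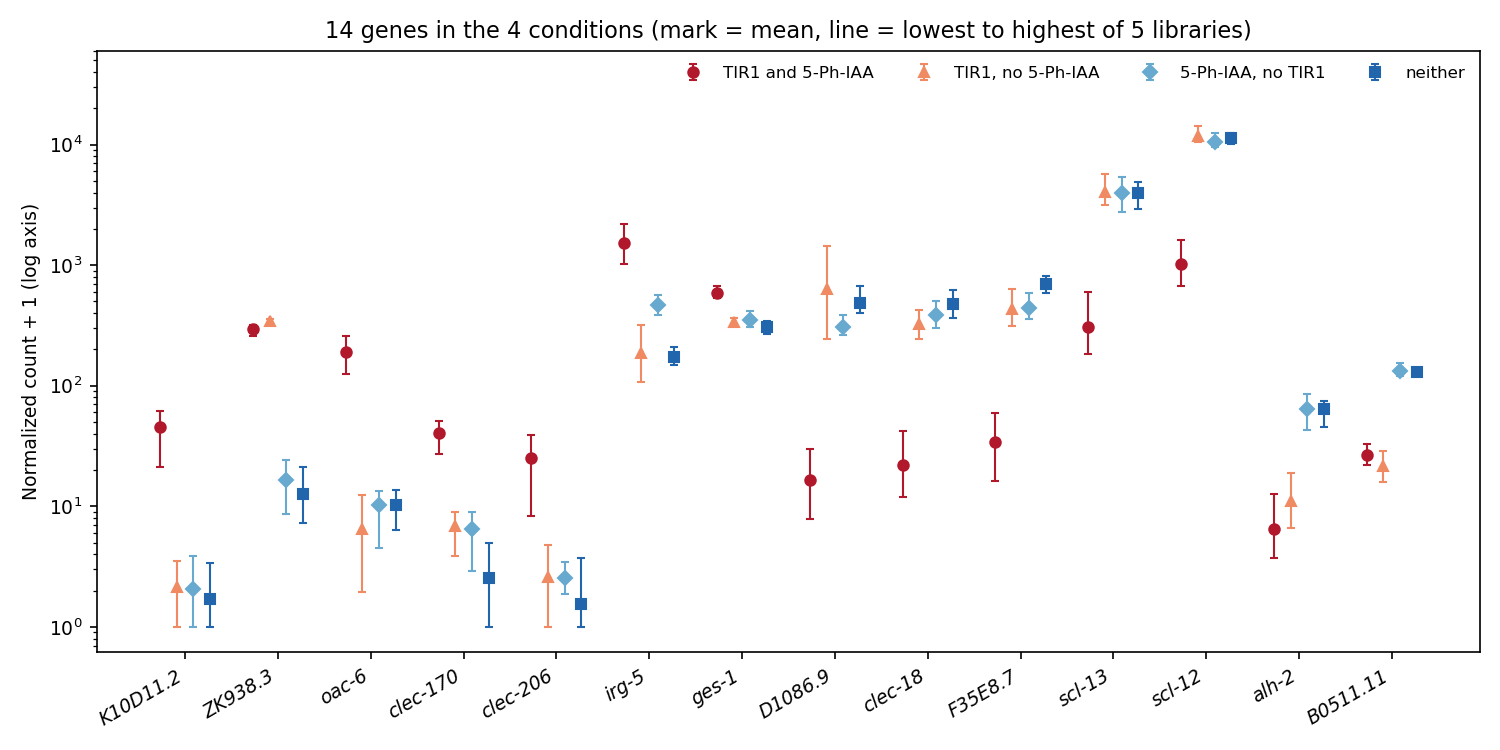
Mean normalized count + 1 (log axis) of 14 genes in the 4 conditions, from left to right within each gene TIR1 and 5-Ph-IAA, TIR1 without ligand, ligand without TIR1, and neither, with lines from the lowest to the highest of 5 libraries. *scl-12* (671 to 1615) and *D1086.9* (6.83 to 29.1) are low only in the first condition, whereas *ZK938.3* and *B0511.11* divide the conditions by strain.

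Genes of protein digestion in the lysosome and gut lumen were mostly higher. Of the 8 *cpr* genes, which encode cathepsin B-like cysteine proteases, 7 rose and none fell (median log2 fold change 1.66, range -0.53 to 3.84), against 5.62% of all tested genes. *cpr-5* had 394, 427, 449, 504 and 338 counts with both components and 81.5, 55, 34.6, 41.8 and 71.6 with neither (log2 fold change 2.93 ± 0.21, adjusted p = 5.36e-11). *cpr-3* had 799, 709, 796, 724 and 666 with both and 321, 275, 252, 289.6 and 267 with neither, a narrower change of 1.39 ± 0.09. Of the 14 tested *asp* genes, which encode cathepsin D-like aspartyl proteases, 8 rose and 2 fell. *asp-6* had 4743, 3844, 4449, 5565 and 4046 counts with both and 1052, 757, 571, 719 and 980.2 with neither (5.63-fold, adjusted p = 1.45e-10). Its neighbour *asp-5* rose 2.74-fold (adjusted p = 5.00e-15) and *asp-2*, which overlaps *inx-10* on the other strand, 5.88-fold. The groups did not overlap for any of these. The falling members were *asp-18*, with 31.4, 23.2, 39, 35.5 and 40.7 counts with both and 143, 131, 211, 422 and 337 with neither (log2 fold change -2.71 ± 0.36), and *asp-9* (-0.91 ± 0.12). *asp-18* had 33.3 to 156 counts with TIR1 and no ligand, and 99.2 to 392 with the ligand and no TIR1. Of 5 *pcp* genes, *pcp-4* and *pcp-2* (1.73 ± 0.18) rose. With the oocyte covariate 7 *cpr*, 6 *asp* and 2 *pcp* genes were higher and 3 *asp* genes lower. How reads shared by close paralogs were counted is not given in the sources used here, so the division of reads within these families is uncertain.

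Other lysosomal and antimicrobial families moved in both directions, and of all tested genes 5.62% were higher and 2.52% lower. Of 10 tested lysozyme genes 4 rose and 2 fell. *ilys-5* had 37, 46.5, 60.5, 95.6 and 75.7 counts with both components and 7.82, 4.78, 1.57, 1.35 and 12.7 with neither (log2 fold change 3.51 ± 0.41, adjusted p = 4.82e-07), and *lys-1* and *lys-2* rose by 1.09 and 1.20. *ilys-3* fell, with 22.5, 11.6, 14.8, 22.5 and 29.1 with both and 53.6, 44.6, 58.2, 56.6 and 60.03 with neither, and so did *lys-3* (-0.59 ± 0.09). Of 26 *spp* genes, whose saposin-like products include membrane-permeabilising antimicrobial peptides, 7 rose and 5 fell. *spp-11* had 879, 954, 1048, 849.9 and 1219.5 counts with both and 4317, 3718, 4345, 3519 and 4623 with neither, a fall of 4.16-fold (adjusted p = 5.34e-15), whereas *spp-27* rose by 2.20, *spp-3* by 1.48 and *spp-14* by 1.34. Of 8 *lipl* genes, which encode lysosomal acid lipase-like enzymes, *lipl-5* (1.55 ± 0.13) and *lipl-6* (0.91 ± 0.23) rose and *lipl-4* fell (-0.59 ± 0.13). None of the 20 subunits of the V-ATPase, the proton pump that acidifies lysosomes, was called by limma, edgeR, DESeq2 or voom, but in limma 18 passed the adjusted p on the higher side (19 at an unadjusted p under 0.05), with a median of 0.27. *haf-9* and *haf-4*, half-transporters of the gut granules, rose by 1.61 ± 0.07 and 0.83 ± 0.05. The fit with the oocyte covariate called 2 lysozyme genes higher and 1 lower, and 4 *spp* genes higher and 3 lower. It called 1 *lipl* gene higher. Calls just past 1.5-fold depended on single libraries. *lys-3* did not pass without replicate 1, 3 or 4 with both components or replicate 1 with neither (-0.56 to -0.52), nor *lipl-4* without replicate 1, 2 or 3 with both or replicate 1, 3 or 5 with neither (-0.58 to -0.54).

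**Figure D5:**
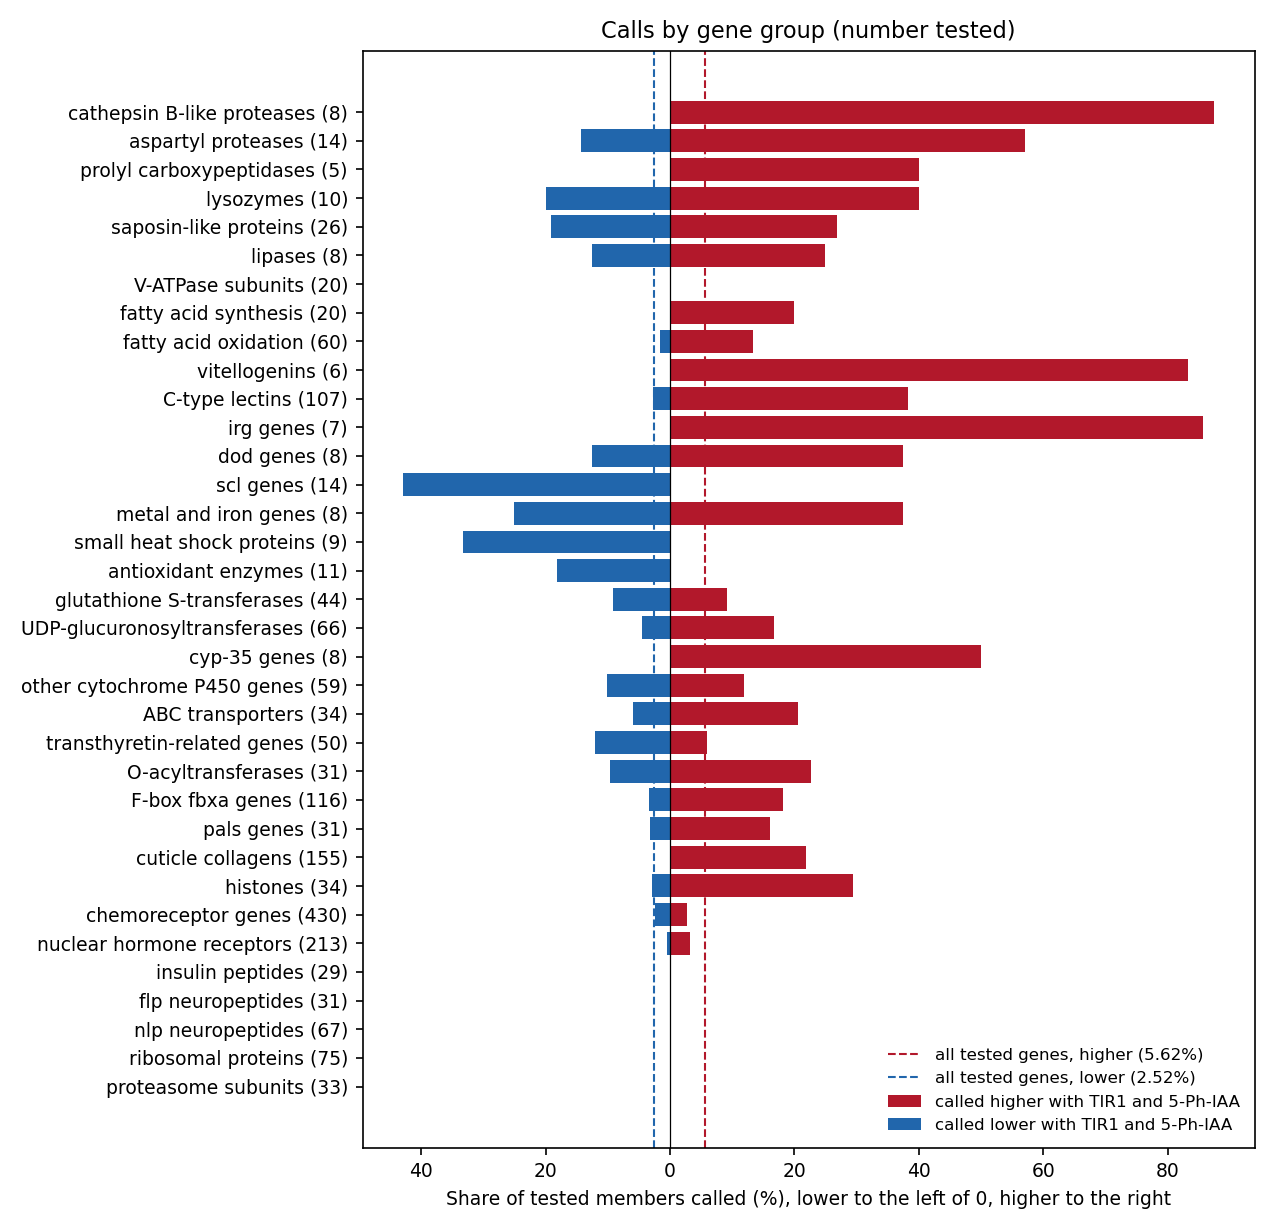
Share of tested members (percent, number tested in brackets) called higher in dauers with both TIR1 and 5-Ph-IAA, to the right, or lower, to the left, for each gene group, with dashed lines at the shares of all tested genes. Cathepsin B-like proteases, infection response genes and vitellogenins lie at 83.3% to 87.5% higher, *scl* genes at 42.9% lower, and insulin and neuropeptide genes at 0.

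Of 20 tested genes of fatty acid synthesis 4 rose and none fell, and 12 passed the adjusted p on the higher side. Their median log2 fold change was 0.44, and of all tested genes 5.62% were higher. *pod-2*, the acetyl-CoA carboxylase that commits acetyl-CoA to fatty acid synthesis, had 24485, 23875, 27331, 24252 and 23036 counts with both components and 9428, 9957, 10356, 11463 and 9563 with neither (2.42-fold, adjusted p = 2.36e-14). The groups stood well apart at this high level, and *pod-2* overlaps *W09B6.4* on the other strand. *fat-6*, a stearoyl-CoA desaturase gene, rose 2.20-fold and *elo-2*, a fatty acid elongase gene, 1.71-fold. Of 60 genes of fatty acid activation and oxidation 8 rose and 1 fell. *acox-1.5* and *dhs-28*, enzymes of peroxisomal β-oxidation, rose by 0.72 and 0.62, *cpt-5*, a carnitine palmitoyltransferase gene, by 1.34, and *acs-3*, an acyl-CoA synthetase gene, fell (-0.85 ± 0.08). *lbp-7* was the single one of 9 lipid-binding protein genes to rise (0.99 ± 0.26). None of the 5 genes of the glyoxylate cycle and gluconeogenesis was called by limma, edgeR, DESeq2 or voom (unadjusted p under 0.05: 1 higher), and of 11 trehalose and glycogen genes only the trehalase gene *tre-3* rose (0.79 ± 0.12). Most members of these groups were not called. With the oocyte covariate 4 synthesis genes, 5 oxidation genes and 2 trehalose and glycogen genes were higher, 2 oxidation genes and 1 lipid-binding gene were lower, and no lipid-binding gene was higher. *dhs-28* did not pass without replicate 4 with both components (0.58).

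Of the gene groups, yolk genes had the largest median change, 5.14 on the log2 scale, and a wide spread between libraries. Of the 6 *vit* genes 5 passed, with log2 fold changes between 4.93 and 5.76, against 5.62% of all tested genes called higher. The count depended on single libraries, with 1 called without replicate 3 or replicate 4 with neither component, 3 called without replicate 1, 3, 4 or 5 with both or replicate 1 with neither, and 6 called without replicate 5 with neither. *vit-2* had 8216, 2812, 9112, 17892 and 17352 counts with both components and 191, 814, 91.3, 36.4 and 4546 with neither (log2 fold change 4.93 ± 1.64, adjusted p = 0.0354). The groups overlapped in replicate 5 with neither component, and *vit-6*, at 8106, 3004, 8869.8, 18222 and 17969 with both and 269, 931, 61.4, 37.7 and 5385 with neither, did not pass (adjusted p = 0.0535). DESeq2 called none of the 6, with log2 fold changes that ran for 5 of them between 3.04 (*vit-3*, adjusted p = 0.175) and 3.55 (*vit-5*, adjusted p = 0.0858). With the oocyte covariate none of the 6 was called either, and the *vit-2* value was -1.88 (adjusted p = 0.744). EdgeR called all 6. The *vit* genes are close paralogs, so their individual values are uncertain.

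C-type lectin genes were the group with the most called members. Of 107 tested C-type lectin genes 41 rose (38.3%) and 3 fell (2.8%), against 5.62% and 2.52% of all tested genes. Their median log2 fold change was 0.57 (range -4.54 to 4.14). *clec-63* had 13232, 10834, 12607, 13674 and 11735 counts with both components and 3118, 2702, 2944, 3041 and 3147 with neither (4.14-fold, adjusted p = 3.24e-16), and *clec-65*, a few kilobases from it on chromosome II, 1030, 842, 1089, 1169.6 and 1144 with both and 366, 309, 356, 357 and 357 with neither. *clec-41* rose 4.88-fold (adjusted p = 1.83e-12). *clec-227* (-0.71) and *clec-101* (-0.80) fell beside *clec-18*. Of 7 tested *irg* genes, named for their response to infection, 6 rose and none fell (median 1.83). *irg-5* had 1247, 1182, 1022, 2179 and 1985 counts with both and 146, 161, 153, 195 and 207 with neither, *irg-4* 191, 183, 151, 349.8 and 375 with both and 30.2, 39, 26.8, 32.3 and 57.7 with neither, and the abundant *irg-7* 26407, 27781, 26188, 25406 and 24582 with both and 14621, 15270, 14274, 13528 and 13774 with neither. *irg-7* had the smallest fold of these and the least spread (log2 fold change 0.87 ± 0.04, adjusted p = 5.96e-14). Of 31 *pals* genes, whose family includes regulators of the response to intracellular pathogens, 5 rose and 1 fell, with *pals-24* and *pals-23* at 2.13 and 1.96 and *pals-17* at -0.75. With the oocyte covariate 22 lectin genes were higher and 4 lower, 4 *irg* genes higher, and 3 *pals* genes higher. With the covariate no *pals* gene was lower. Without replicate 5 with both components or replicate 3 with neither 5 lectin genes were lower. *clec-101* did not pass in voom (adjusted p = 0.0731) or without replicate 1, 2 or 3 with both or replicate 1, 2 or 4 with neither (adjusted p = 0.0521 to 0.122), nor *clec-227* without replicate 2 with neither (-0.53). Without replicate 3 with both components 3 *pals* genes were higher and 2 lower, and quantile normalization also gave 3 higher and 2 lower.

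Of 8 tested metal and iron genes 3 rose and 2 fell, against 5.62% and 2.52% of all tested genes. Both that fell, *ftn-1* and *mtl-1*, are known as DAF-16 targets. *ftn-1*, a ferritin gene, had 179, 205.5, 243, 212 and 192 counts with both components and 421, 381, 494, 457 and 368 with neither (log2 fold change -1.03 ± 0.08, adjusted p = 6.83e-10). *mtl-1*, a metallothionein gene, had 1908, 2269, 2059, 1802 and 2174 with both and 3265, 2932, 3731, 3690.3 and 3306 with neither (-0.73 ± 0.07, adjusted p = 2.59e-08). For both genes every library with both components lay below every library with neither. The second metallothionein gene moved the other way, and *mtl-2* had 85.2, 91.1, 107, 99.1 and 116 counts with both and 10.1, 7.17, 12.59, 5.39 and 25.4 with neither (8.66-fold, adjusted p = 8.64e-09). *cdr-1*, a cadmium-responsive gene, and *smf-3*, a divalent metal transporter gene, rose by 2.33 and 0.69. Of 11 antioxidant enzyme genes 2 fell, both superoxide dismutases. *sod-3* had 215, 218, 222, 247 and 311 counts with both and 512, 534, 493, 554 and 462 with neither (-1.08 ± 0.10, adjusted p = 3.68e-09), although reads of *C08A9.3* and *lido-1* on the other strand cannot be told apart from it. *sod-5* fell by 2.37-fold at low counts. Of 9 tested small heat shock protein genes none rose and 3 fell. *hsp-16.41* had 51.5, 61.2, 79.4, 59.4 and 52.4 with both and 181, 125, 116, 114.5 and 117 with neither, *hsp-16.2* 48.2, 72.8, 69.3, 57.4 and 58.2 with both and 122, 120.3, 109, 151 and 106 with neither, and *hsp-12.3* fell by 1.73-fold. *hsp-12.6* had a log2 fold change of -0.42 ± 0.12 (adjusted p = 0.0182), under 1.5-fold, and 166, 179.8, 217, 210.4 and 306 counts with both components, of which replicate 5 was the highest. Without both replicate 5 libraries its value was -0.59 and passed. *sod-5* did not pass without replicate 1 or 2 with both components or replicate 3 with neither (adjusted p = 0.0505 to 0.0641). The oocyte covariate left 2 metal and iron genes higher and 4 small heat shock protein genes lower.

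Of 8 tested *dod* genes, a set named in studies of DAF-16, 3 rose and 1 fell, against 5.62% and 2.52% of all tested genes. *dod-17*, *dod-19* and *dod-23* rose by 3.70, 1.91 and 2.70, and *dod-6*, the most abundant of those named, had 4179, 4070.2, 4061, 4062 and 5108 counts with both components and 7718, 6658, 7377, 7150.3 and 8113 with neither (-0.79 ± 0.07). These symbols were given for earlier results on DAF-16, so the list mixes genes known to rise with genes known to fall. Adding the oocyte covariate left 2 *dod* genes higher, and without replicate 3 with both components or replicate 1 with neither 2 were lower.

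Most detoxification families had members that rose and members that fell, and of all tested genes 5.62% were higher and 2.52% lower. Of 44 glutathione S-transferase genes 4 rose (9.09%) and 4 fell (9.09%). *gst-38* had 76.4, 91.1, 78.7, 79.3 and 111 counts with both components and 155, 153, 134, 136 and 139 with neither (-0.72 ± 0.11, adjusted p = 2.64e-05), *gst-34* fell by 4.80-fold and *gst-20* by 1.71-fold, and *gst-22* rose 7.22-fold. Of 66 UDP-glucuronosyltransferase genes 11 rose (16.7%) and 3 fell (4.55%). *ugt-19* and *ugt-62* were higher by 1.68 and 1.53. *ugt-27* was lower, at 192, 174, 196, 159.9 and 244 with both and 451, 451, 510.1, 395 and 505 with neither. Of 8 *cyp-35* genes, cytochrome P450 genes of the intestine that respond to xenobiotics, 4 rose, among them *cyp-35A1* (11.6 to 28.7 with both, 1.12 to 3.98 with neither) and *cyp-35A5* (18.5 to 64 and 1.35 to 6.93). The 59 other P450 genes gave 7 higher (11.9%) and 6 lower (10.2%). *cyp-34A2* and *cyp-13B1* fell by 1.96-fold and 1.62-fold, and *cyp-37A1* rose 2.56-fold. Of 34 ABC transporter genes 7 rose (20.6%) and 2 fell (5.88%). Beside *haf-9* and *haf-4* these included *abt-4*, higher by 0.97, and *pgp-4* and *pgp-6*, lower by log2 changes of -0.59 and -0.60. With the oocyte covariate 3 glutathione S-transferase genes were higher and 2 lower, 8 UDP-glucuronosyltransferase genes higher and 2 lower, 1 *cyp-35* gene higher, 5 other P450 genes higher and 3 lower, and 6 ABC transporter genes higher and none lower. Without replicate 5 with both components 8 glutathione S-transferase genes were higher. Neither *pgp-4* nor *pgp-6* passed without replicate 4 with both components or replicate 3 or 4 with neither (-0.57 to -0.51), *pgp-4* did not pass without replicate 1 with both or replicate 2 with neither (-0.57 and -0.56), and *pgp-6* did not pass in edgeR (-0.58).

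Several secreted or membrane families had a few members with steep and opposite changes. Of 14 tested *scl* genes 6 fell (42.9%, median -1.05), against 2.52% of all tested genes, and none rose with limma, edgeR, DESeq2 or voom (unadjusted p under 0.05: 1 higher). Of 31 O-acyltransferase genes 7 rose (22.6%) and 3 fell (9.68%), and of all tested genes 5.62% were higher. *oac-39* had 6174, 7161, 7404, 5822 and 7579 counts with both components and 18428, 19259, 20615, 19808 and 18638 with neither (-1.51 ± 0.05, adjusted p = 3.24e-16), and *oac-55* 117, 167, 155, 163 and 175 with both and 636, 613, 649, 591 and 690.4 with neither, whereas *oac-14* rose 4.57-fold and *oac-31* 4.66-fold. Of 50 transthyretin-related genes 3 rose (6%) and 6 fell (12%). *ttr-19* had 81.2, 82, 72, 59.4 and 119 with both and 617, 514, 538, 535 and 418 with neither (-2.68 ± 0.12, adjusted p = 9.33e-15), and *ttr-41* fell by 1.90-fold. Among 28 astacin protease genes *nas-10* fell by 3.80-fold and *nas-3* rose 4.09-fold (3.57% each way). Of 116 *fbxa* genes, which encode F-box proteins, 21 rose (18.1%) and 4 fell (3.45%). Among those that fell, *fbxa-192* had 17.5 to 40.4 counts with both components and 77.4 to 120 with neither. It was also low with TIR1 and no ligand, at 25.3 to 34.3. Of 57 *math* and *bath* genes 8 rose (14%) and none fell. Of 430 chemoreceptor genes 12 rose (2.79%) and 10 fell (2.33%), and *str-7* stood out with 327, 246, 273, 263 and 209.6 counts with both and 48, 36.6, 45.7, 53.9 and 36.9 with neither (5.86-fold, adjusted p = 5.96e-14). The lower count of chemoreceptor genes was 4 without replicate 5 with both components, 2 without both replicate 5 libraries, 5 with DESeq2 and 15 with quantile normalization. Without replicate 3 with neither component 3 transthyretin-related genes were lower, and without replicate 5 with both 2 astacin genes were higher. In the covariate fit 5 *scl* genes were lower, 4 O-acyltransferase genes were higher and 2 lower, 2 transthyretin-related genes higher and 5 lower, 12 *fbxa* genes higher and 3 lower, 6 *math* and *bath* genes higher, and 6 chemoreceptor genes higher and 1 lower.

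Insulin peptide genes, which the study set out to examine as signals from the intestine, were not called in the limma fit. None of the 29 tested (*ins* genes and *daf-28*) passed in either direction, with log2 fold changes of -1.14 to 1.28. Of all tested genes 5.62% were higher and 2.52% lower. A list of 29 genes does not tell whether insulin genes changed less often than that. Unadjusted p-values under 0.05 were seen for 3 genes on the higher side and 6 on the lower side, and edgeR, DESeq2 and voom each called 2 higher and none lower. *ins-7*, an insulin gene known as an agonist made in the intestine, had 11.3, 12.2, 10.1, 10.2 and 2.91 counts with both components and 1.12, 3.98, 3.15, 5.39 and 2.31 with neither (log2 fold change 1.28 ± 0.55, adjusted p = 0.11). It was higher in 4 of the 5 libraries with both components than in every library with neither, and the lowest was the shallow replicate 5, where the value stands for 1 read. On the recovered reads *ins-7* passed with edgeR (1.65, adjusted p = 0.0446), DESeq2 (1.65, adjusted p = 0.0474) and voom (1.62, adjusted p = 0.0273), and in the limma fit without that library (1.61, adjusted p = 0.045), so its call depended on the setting. *ins-33* had 51.5, 23.9, 29.6, 51.9 and 17.5 counts with both and 23.5, 21.5, 15.7, 24.2 and 9.24 with neither (0.81 ± 0.31, adjusted p = 0.0786) and likewise passed with edgeR (0.95, adjusted p = 0.0256), DESeq2 (0.93, adjusted p = 0.0232) and voom (0.92, adjusted p = 0.0396), and with the replicate block (0.81, adjusted p = 0.0155). *ins-1*, *ins-18*, *ins-24* and *ins-35* had negative values, -0.41, -0.37, -0.28 and -0.44, with adjusted p of 0.0596, 0.155, 0.0596 and 0.0541.

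Genes for dense-core vesicle secretion from the intestine gave 2 higher and none lower of 9 (22.2% higher, against 5.62% of all tested genes). *aex-1*, a Munc13-like regulator of exocytosis, had 133, 131, 124, 156 and 99 counts with both components and 39.1, 40.6, 42.5, 51.2 and 48.5 with neither (2.84-fold, adjusted p = 1.04e-06). *aex-4*, a SNAP25-like SNARE gene that overlaps *tag-18* on the other strand, had 25.7, 17.1, 21.5, 30.1 and 11.6 with both and 7.82, 6.37, 6.30, 5.39 and 6.93 with neither (adjusted p = 0.00158). *aex-5*, a proprotein convertase gene, overlaps *maph-1.1* and *str-245* on the other strand. It was separated but below 1.5-fold, at 139.7 to 192 with both and 105 to 132 with neither (0.45 ± 0.10, adjusted p = 0.00164). None of the 11 genes of neuropeptide processing and release was called by limma, edgeR, DESeq2 or voom (unadjusted p under 0.05: 1 higher, 6 lower). *sbt-1*, a chaperone of a neuropeptide-processing enzyme, had -0.16 ± 0.05, *unc-31*, needed for dense-core vesicle release, -0.15 ± 0.07, and *trap-1*, 0.22 ± 0.07 (adjusted p = 0.0333). In the fit with the oocyte covariate *aex-4* did not pass (1.25, adjusted p = 0.224) and *aex-5* did (0.62, adjusted p = 0.0161).

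In limma none of 31 *flp* or 67 *nlp* genes was called, against 5.62% of all tested genes called higher and 2.52% lower. The median log2 fold changes of the *flp* and *nlp* genes were -0.24 and -0.18, and the lowest -1.14 and -1.03. On the lower side 14 *flp* and 13 *nlp* genes passed the adjusted p, against none of the *flp* and 3 of the *nlp* genes on the higher side. At an unadjusted p under 0.05, 21 *flp* and 23 *nlp* genes were lower and 0 and 4 higher, and edgeR, DESeq2 and voom each called 1 *nlp* gene lower and no *flp* gene. Quantile normalization called 3 *nlp* genes lower, and the oocyte covariate 1 *nlp* and 1 *flp* gene. The neuron markers, summed, were also lower with both components, at 7980 to 8464 against 8661 to 9063 with neither. Single markers were mixed, with none of the 8 called, 2 past the adjusted p on the lower side and 2 with positive values. *snb-1* had 1825 to 1941 counts with both and 1602 to 1820 with neither (0.11 ± 0.04), and *rab-3* was at 0.12 ± 0.07. The part of neuron RNA in the neuropeptide values was not tested.

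The lists for pathways that control dauer arrest are short. Their counts do not tell whether these genes changed more or less often than all tested genes (5.62% higher, 2.52% lower). In the insulin pathway 1 of 14 genes was called higher (7.14%) and none lower. The called gene was *sgk-1*, which encodes a kinase that acts with AKT on DAF-16 (0.60 ± 0.08, adjusted p = 1.37e-06). It lay just over 1.5-fold and did not pass with equal library totals (0.57), quantile normalization (0.56) or the oocyte covariate (0.51), or without replicate 4 with both components or replicate 1, 4 or 5 with neither (0.56 to 0.58). None of 7 genes of the dauer TGF-β pathway (unadjusted p under 0.05: 1 higher, 1 lower) and none of 7 tested genes of the dafachronic acid hormone pathway (3 higher, 2 lower) was called by limma, edgeR, DESeq2 or voom. *daf-12*, the nuclear receptor for that hormone, had 3354, 3381, 3300, 3307 and 3254 counts with both components and 4477, 4287, 4386, 4176 and 4738 with neither (-0.41 ± 0.04, adjusted p = 8.46e-08), a complete separation short of 1.5-fold. Among 13 intestinal transcription factor genes the nuclear receptor genes *nhr-8* and *nhr-80* rose, by 1.02 ± 0.11 and 0.64 ± 0.11, and of 213 nuclear hormone receptor genes 7 rose (3.29%) and 1, *nhr-246*, fell. *nhr-80* did not pass without replicate 5 with neither component (0.55). Without replicate 4 with both or replicate 2 with neither 2 nuclear hormone receptor genes were lower. The covariate fit called 4 intestinal transcription factor genes higher, and 6 nuclear hormone receptor genes higher and none lower.

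Of 155 cuticle collagen genes 34 rose in limma (21.9%, against 5.62% of all tested genes). None fell in limma, where 3 were lower at an unadjusted p under 0.05, and edgeR, DESeq2 and voom each called 1 lower. The higher count was 18 with DESeq2, and 16 without replicate 4 and 21 without replicate 5 with both components, and 22 without replicate 3 and 17 without replicate 4 with neither. *col-95* had 136, 22, 138, 204 and 116 counts with both components and 3.35, 3.98, 0, 0 and 28.9 with neither (log2 fold change 4.79 ± 0.87), and *sqt-3* 204, 182, 255, 312 and 195 with both and 100.5, 122, 70.8, 101.01 and 188 with neither. For both genes replicate 5 with neither component lay above replicate 2 with both. The adult-specific *bli-1* rose by 3.82 ± 0.78 (adjusted p = 7.95e-04). It did not pass in DESeq2 (2.52, adjusted p = 0.0867) or with the oocyte covariate (2.36, adjusted p = 0.345), which called none of the 4 tested adult cuticle markers. *col-19* did not pass in the main limma fit (2.57 ± 1.05, adjusted p = 0.0933). It passed with edgeR (1.85, adjusted p = 0.0399) and voom (2.29, adjusted p = 0.0166). In limma *col-19* passed with a pseudocount of 5 (2.45, adjusted p = 0.0241) and with only the 10 libraries fitted (2.57, adjusted p = 0.00613). It also passed without replicate 5 with neither component (3.15, adjusted p = 0.0441). None of 4 tested dauer cuticle genes was called by limma, edgeR, DESeq2 or voom, and none had an unadjusted p under 0.05. Of 34 tested histone genes 10 rose and 1 fell, and close histone copies share reads. Of the 12 oocyte markers 11 rose, for example *rme-2*, the yolk receptor (364, 270.3, 428, 646 and 553 with both, 155, 209.5, 118, 124 and 292 with neither), and *oma-2* (270.2, 191, 280.4, 374 and 425 and 122, 155, 121, 139 and 182). With the oocyte covariate, which holds these genes itself, no collagen, histone or oocyte marker gene was higher, 1 collagen gene was lower and no histone gene was lower. Of 11 tested sperm markers 3 rose in limma and none in DESeq2 or with the oocyte covariate. The count was 0 without replicate 4 with both components, 0 without replicate 4 with neither and 7 without replicate 5 with neither component.

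No gene of the housekeeping groups was called, and of all tested genes 5.62% were higher and 2.52% lower. The lists of 33 proteasome and 23 DNA replication genes are too short to tell whether these changed less often than all tested genes. None of 75 tested ribosomal protein genes was called by limma, edgeR, DESeq2 or voom, and their log2 fold changes were -0.16 to 0.06 (unadjusted p under 0.05: none higher, 9 lower). None of 33 proteasome subunits (-0.01 to 0.32) and none of 23 DNA replication genes (0.00 to 0.57) was called by any of these tools, although 4 and 5 of these passed the adjusted p on the higher side and 15 and 7 were under an unadjusted p of 0.05, all higher.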

How the data were processed

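RNA-seq of whole dauers was compared between 5 libraries with TIR1(F79G) and 5-Ph-IAA and 5 with neither. On Galaxy, the authors used FastQC for read quality, Trimmomatic for trimming, STAR for alignment, featureCounts for reads per gene and DESeq2 for normalization. Tool versions, the strand setting and the treatment of reads with several matches are not given in the sources used here. The signal values the authors deposited are reads per gene divided by a DESeq2 size factor, with 1 column per library and no pooling. A single read is worth 0.6116 to 2.91 of these units, and on that scale 100% of values were whole reads within 0.01. The table has 46925 gene identifiers, 46921 of them in the WBcel235 annotation and 44113 with a gene symbol. Replicates differed by more than counting error (lowest chi-square per degree of freedom 2.84, Pearson correlations across genes 0.9576 to 0.9867).

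The main test was limma 3.58.1 (R 4.3.3), with a variance trend, on log2(normalized count + 1) of all 20 libraries, with 1 mean per condition, for 17090 genes with a mean of at least 2. Adjustment was Benjamini-Hochberg over all of them, and a call needed an adjusted p under 0.05 and 1.5-fold (0.58 on the log2 scale). Fold changes are on this scale and understate changes of low genes. Count tests (edgeR 4.0.16, DESeq2 1.42.0, voom) on the recovered reads were alternatives, because the deposited counts are normalized. On simulated data for both against neither with 17090 genes, limma recovered 140 of 200 genes changed 3-fold (70%; 95.1% of those with a mean of at least 10) and called 4 others. Python 3.11.15, pandas 2.3.3, numpy 2.4.6, scipy 1.17.1 and matplotlib 3.10.9 were used.

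Groups came from the sample labels. The genes named are those the study names for this experiment, the 12 largest changes in each direction among called genes without overlap and with a mean of at least 10, the up to 3 called members per direction and list with the smallest adjusted p, genes also called for either component alone, *ges-1*, *unc-54* and the cell type markers. The comparison, the gene lists and these rules were chosen with earlier results of these data known. Lists are described by counts and medians with no set test. Alternatives covered the pseudocount, filter, normalization, replicate block, weights, test, thresholds, oocyte covariate and each library left out. Between the groups, deviations of libraries of the same replicate number correlated at -0.098 to 0.076 over all tested genes, none over 0.1. These correlations do not exclude a shared effect on some genes. Nothing in the labels says whether replicates came from separate cultures grown on different days, so p-values measure the spread between these libraries. Sequences were not used here.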

Additional observations from a re-analysis of the deposited data

Results flagged for a closer look

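Within the groups of 5, 10 values lay far from the other 4 by Dixon's criterion, out of 106 groups examined for 53 genes, of which chance would give about 1 in 20. With both components, replicate 5, the shallow library, was the isolated one each time. It had the lowest *ins-1* (37.8 normalized counts) and *ins-7* (2.91) and the highest *scl-13* (600) and *tag-344* (5.82). With neither component, replicate 5 had the highest *D1086.9* (672) and *elt-2* (177), replicate 4 the highest *Y51B9A.8* (894) and *clec-206* (2.69), and replicate 2 the highest *chil-22* (5.58) and *cyp-35A1* (3.98).

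For 8 of the 10 leading genes the effect of 5-Ph-IAA differed between dauers with TIR1 and dauers without it, tested as an interaction term in limma. This term was called positive for 5.22% of all tested genes and negative for 1.52%. The 10 genes were chosen for their change between both components and neither, and the same libraries enter the term, so this count is no independent support. On the log2 scale the effect with TIR1 minus that without was 5.20 for *oac-6*, 4.17 for *K10D11.2* and 2.35 for *clec-206*. It was -4.45 for *D1086.9*, -3.81 for *scl-13*, -3.66 for *clec-18*, -3.50 for *scl-12* and -3.06 for *F35E8.7*. The 5 lowered genes share a pattern of a large change with both components that did not pass with either one alone.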

How the results depend on the processing

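Of 960 higher and 431 lower calls, each library left out in turn gave 815 to 998 higher and 378 to 442 lower, and the excess distance between groups, 23 over the 500 most variable genes, ranged between 19.86 and 27.78. A fold change of 2 gave 624 higher and 209 lower, no fold cutoff 1787 and 1351, and the oocyte marker covariate 449 and 277. The main fit did not pair libraries of the same number. A fit with the replicate block called 1040 higher and 466 lower, of which 955 and 424 were among the original calls. Its effect on *ins-33* stands above, and no named call was lost. Leaving out replicate 5 of both groups gave 947 and 349, edgeR 958 and 404, and DESeq2 877 and 391. Of 177 named genes with a call, edgeR kept 173, DESeq2 164, quantile normalization 175 and the oocyte covariate 115. With that covariate 15 had the opposite sign and none of them passed in that direction. Their values were -1.94 for *vit-1*, -1.88 for *vit-2*, -1.26 for *vit-3*, -1.59 for *vit-4*, -1.57 for *vit-5*, -0.83 for *perm-2*, -1.06 for *perm-4*, -0.02 for *cpg-1*, -0.07 for *cpg-2*, -0.05 for *egg-1*, -0.06 for *puf-5*, -0.00 for *rme-2*, -0.37 for *gsp-3*, -0.25 for *msp-77* and 0.04 for *srx-67*. The cause was not tested, though 7 of these genes, *perm-2*, *perm-4*, *cpg-1*, *cpg-2*, *egg-1*, *puf-5* and *rme-2*, are part of the covariate. With a minimum mean of 10, 162 named calls could be compared and 162 were kept. Genes under about 10 counts rest on few reads, above all in replicate 5 with both components, where 1 read is worth 2.91.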

Other observations

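A few families outside the gene groups stood out once values had been seen, so they carry no test as groups. Of all tested genes 5.62% were higher and 2.52% lower. All 5 tested *ule* genes, named for expression in the uterine lumen, were higher with both components. *ule-3* had 55.7 to 301 normalized counts with both (median 166) and 16.2 to 125.8 with neither (median 22.3), and *ule-5* 25.7 to 186 with both and 0 to 54.3 with neither, so the groups overlapped. Of 7 cathepsin A-like *ctsa* genes 4 were higher and none lower. *ctsa-2* had 5915 to 7615 counts with both components and 2190 to 2706 with neither (log2 fold change 1.51 ± 0.06, adjusted p = 5.00e-15), and *ctsa-1.2* 848 to 1237 with both and 191 to 349.8 with neither (2.05 ± 0.13). Of 16 *fipr* genes, named as relatives of fungus-induced proteins, 4 were lower and none higher. *fipr-3* had 5.82 to 16.5 counts with both components and 17.5 to 29.9 with neither (-1.22 ± 0.25, adjusted p = 0.000875).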
